A study of Mus musculus with 4 samples.

Results

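The smooth muscle contractile genes considered here are 10 genes, Acta2, Tagln, Myh11, Cnn1, Myocd, Lmod1, Smtn, Mylk, Actg2 and Cald1, taken by symbol from the 23337 gene rows of a count table of mouse cardiac cushions. All 10 had a row, and all 10 were among the 14316 genes that passed the filter on low counts. Cushions are swellings of the outflow tract and the atrioventricular canal from which the heart valves form. They were dissected from C57BL/6 embryos at embryonic day 14.5, guided by GFP from a reporter of Cre activity. Total RNA was sequenced after ribosomal depletion from 2 libraries of wildtype littermates and 2 libraries of Nfatc1Cre;Brg1F/F mutants, in which Nfatc1-Cre is used to delete the floxed Brg1 gene (Smarca4, the motor ATPase of SWI/SNF chromatin remodellers) from the endocardium and its descendants. Nfatc1-Cre does not act in every cell of the dissected tissue. How many embryos went into a library is not stated in the labels, so p-values reflect the spread between libraries, part of which may be technical. With 2 libraries per genotype, the main test takes that spread largely from all genes together, not from the single gene. Libraries are numbered 1 and 2 by their replicate number.

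Smooth muscle contracts when myosin light chain kinase phosphorylates the light chains of a dedicated myosin, which then pulls on actin filaments dressed with calponin, caldesmon and other binding proteins. Much of this gene set is switched on by serum response factor (SRF) and its cofactor myocardin, which act through a short DNA element called the CArG box. In the embryo several of these genes are not particular to smooth muscle: Acta2, Tagln, Cnn1 and Myocd are also transcribed in developing heart muscle, and Cald1, Mylk and Smtn have products outside smooth muscle. Myh11 is the most restricted smooth muscle marker of the set.

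Gene reads numbered from 14104458 to 22426537 per library. Smarca4 measured 251 and 231 CPM (reads scaled to library size) in the wildtype libraries 1 and 2, and 282 and 239 CPM in the mutant libraries 1 and 2. Its log2 fold change was 0.11 ± 0.14 (SE, n = 2 libraries per genotype), with an edgeR adjusted p of 0.979, so the counts of the targeted gene do not bear out the genotype labels, though they also count transcript beyond the floxed exons and cells that never expressed Cre. Wildtype and mutant name the libraries by their labels throughout. Mutant replicate 2 stood apart in sex-linked transcripts, with Xist at 13.3 CPM against 2047 to 2659 CPM in the other libraries and the Y-linked Ddx3y at 239 CPM against 0 to 1.77 CPM, so by these transcripts it differed from the other 3 in sex. In all, 25 cardiomyocyte markers summed to 86290 and 77334 CPM in the wildtype libraries 1 and 2, and to 68196 and 74495 CPM in the mutant libraries 1 and 2. A set of 20 symbols for macrophage and leukocyte markers, 19 of which had a row, summed to 235 and 231 CPM in wildtype libraries 1 and 2, against 384 and 415 CPM in the mutant libraries. Whether a change in cell numbers or in RNA per cell lies behind a level cannot be told apart in bulk tissue. The part of the differences in cardiomyocyte and leukocyte markers in the values that follow was not tested.

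The contractile genes covered a wide range of levels, and the most restricted smooth muscle markers were the lowest. Levels between genes are compared as RPKM, reads scaled to exon length and to library size (exon length from GENCODE M21). Acta2 was at 376 ± 24.9 RPKM (SD over the 4 libraries), Tagln at 73.5 ± 17.5 and Cnn1 at 65.5 ± 6.53. Myocd was at 23.1 ± 3.98 RPKM, Cald1 at 20.8 ± 0.501, Smtn at 12.2 ± 2.57 and Mylk at 3.75 ± 0.286. Actg2 was at 2.81 ± 0.342 RPKM, Lmod1 at 0.676 ± 0.170 and Myh11 at 0.598 ± 0.248. The library ranges of neighbours in this order overlapped for Tagln and Cnn1, for Myocd and Cald1, and for Lmod1 and Myh11, and not for the other 6 neighbouring pairs. Cald1 and Mylk have long sets of alternative exons, which lower a value per exon length. Per kilobase of the longest annotated transcript, Cald1 came to 52.5 and lay above Myocd at 29.0, with no overlap of the library ranges, and Myh11 at 0.694 and Lmod1 at 0.676 changed places.

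**Figure D1:**
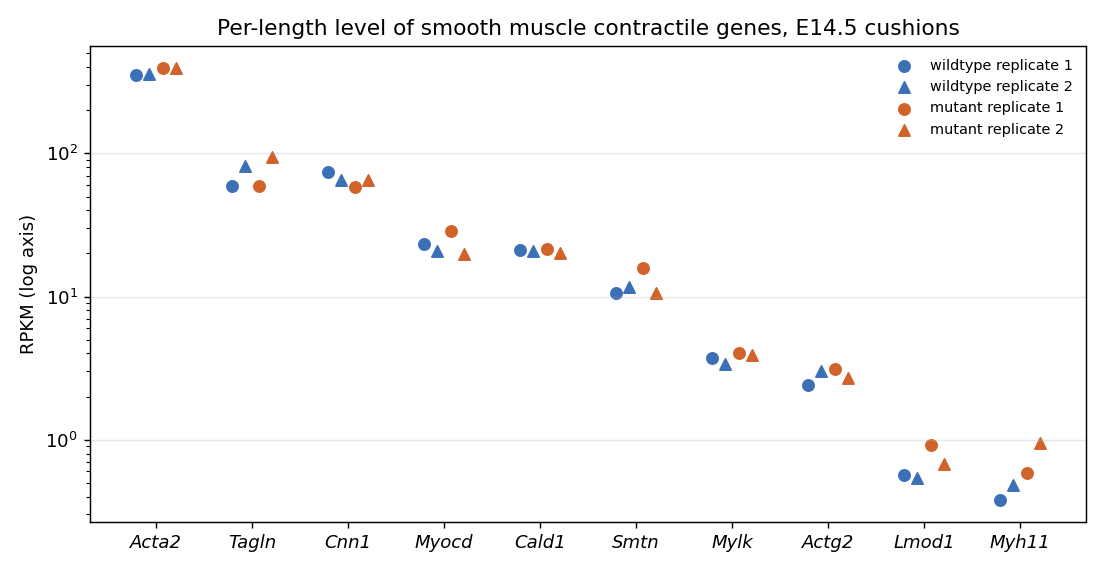
RPKM (reads scaled to exon length and library size, log axis) of the 10 contractile genes in each of the 4 libraries, ordered by mean; blue is wildtype, orange is mutant, circles are replicate 1 and triangles replicate 2. Acta2 lies at 352 to 398 RPKM, while Lmod1 and Myh11 stay below 1 RPKM in every library.

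Against all tested genes by mean CPM, Acta2 was at the 99.3rd percentile, Cald1 at the 95.1st, Cnn1 at the 92.0th, Myocd at the 89.8th and Tagln at the 89.7th. Smtn at the 71.4th and Mylk at the 65.9th percentile were intermediate. Myh11 at the 22.1st, Actg2 at the 21.5th and Lmod1 at the 15.8th percentile rested on 34 to 111 reads per library. The 10 genes together made up 1591 and 1606 CPM in the wildtype libraries 1 and 2, and 1720 and 1712 CPM in the mutant libraries 1 and 2, and Acta2 alone gave 48.5% to 50.9% of that sum. Without Acta2 the sums were 819 and 822 CPM in wildtype libraries 1 and 2, against 845 and 840 CPM in the mutant libraries.

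The comparison of genotypes asked which of these transcripts differ between the libraries labelled wildtype and those labelled Nfatc1Cre;Brg1F/F mutant. With edgeR's quasi-likelihood test and Benjamini-Hochberg adjustment over all 14316 genes, 0 of the 10 passed an adjusted p of 0.05, where 0.0629% of all tested genes did. DESeq2 and limma-voom also called 0 of the 10 (0.433% and 0.0489% of all tested genes), and so did edgeR with the replicate number as a block (0.887%). At an unadjusted p under 0.05, 1 member, Myh11, was higher in the mutant and 0 were lower, against 3.88% and 1.9% of all tested genes. The median log2 fold change of the 10 was 0.15, with a range of -0.18 to 0.82, and that of all tested genes was -0.0027. A permutation of 2 against 2 libraries cannot reach an exact two-sided p below 0.333, so no single gene was tested that way.

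**Figure D2:**
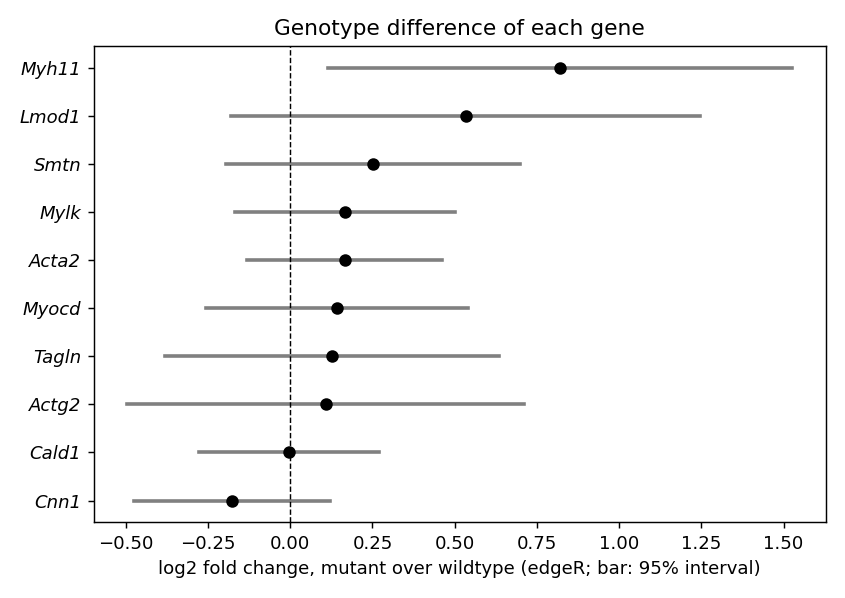
Log2 fold change of each contractile gene, mutant over wildtype (points, edgeR), with its 95% interval (grey bars), n = 2 libraries per genotype. Myh11 at 0.82 has the only interval above 0 before adjustment, and the intervals of the other 9 genes include 0.

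Myocardin (Myocd, chromosome 11, 65176561 to 65269989 on the minus strand, GRCm38) is the SRF cofactor that drives the smooth muscle program and is also present in embryonic heart muscle. It measured 148 and 133 CPM in the wildtype libraries 1 and 2, and 184 and 127 CPM in the mutant libraries 1 and 2. Mutant replicate 1 was the highest and mutant replicate 2 the lowest library, so the wildtype values lay between the mutant ones. The log2 fold change was 0.14 ± 0.18 (SE), with an edgeR adjusted p of 0.979 and a 95% interval of -0.26 to 0.54. Without mutant replicate 1 it was -0.16.

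Acta2, smooth muscle alpha-actin, lies on chromosome 19 at 34241090 to 34255590. Its proximal promoter is shown because Acta2 is the most abundant of the 10 and its window was the only one with a CArG-type element. The window runs from 250 bases before to 50 after the annotated start (RefSeq, GRCm38.p6, chr19:34255324-34255623, minus strand, 5′ to 3′), and capitals mark the 2 matches.
Acta2 promoter: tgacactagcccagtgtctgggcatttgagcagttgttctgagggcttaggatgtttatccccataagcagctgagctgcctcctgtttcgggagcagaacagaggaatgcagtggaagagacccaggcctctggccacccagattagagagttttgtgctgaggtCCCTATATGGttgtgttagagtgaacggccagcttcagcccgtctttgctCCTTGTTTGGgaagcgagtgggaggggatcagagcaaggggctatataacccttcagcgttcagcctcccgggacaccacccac
The matches begin 84 and 34 bases upstream of the RefSeq start. The gene limits given above are those of GENCODE, which reach farther upstream, to 34255590, so both matches lie inside them.
Upstream Acta2 element: CCCTATATGG
Proximal Acta2 element: CCTTGTTTGG
Both keep the outer CC and GG of the CArG box, and each has 5 of its 6 inner bases A or T. The search read the element on both strands, where it has the same outer letters, and asked for at least 5 of 6 inner bases A or T. Such a match was in 9.98% of 32851 promoter windows of this length, and a match with all 6 inner bases A or T was in 1.63%. Windows were available for 6 of the 10 genes, 7 windows in all since Cald1 has 2, and those of Cnn1, Lmod1, Smtn, Mylk and Cald1 held 0 matches in these letters. Tagln, Myh11, Myocd and Actg2 had no window in the table used.

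Acta2 measured 772 and 785 CPM in the wildtype libraries 1 and 2, and 874 and 872 CPM in the mutant libraries 1 and 2. Both mutant libraries lay above both wildtype libraries, and the libraries of each genotype were close to each other. This was a log2 fold change of 0.17 ± 0.13, a 1.12-fold difference, with an edgeR adjusted p of 0.962. The 95% interval of the fold was 0.913 to 1.38. The estimate stayed between 0.16 and 0.17 when any 1 library was left out, including mutant replicate 2.

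Actg2, the gamma-actin of visceral smooth muscle (chromosome 6, 83512905 to 83536265), had 70 and 75 reads in the wildtype libraries 1 and 2, and 111 and 59 reads in the mutant libraries 1 and 2. These were 3.73 and 4.73 CPM in wildtype libraries 1 and 2, against 4.89 and 4.17 CPM in the mutant libraries, and the groups overlapped. Its log2 fold change was 0.11 ± 0.27, with an edgeR adjusted p of 0.987. Leaving out replicate 1 turned its sign, to -0.054 where the wildtype library was dropped and -0.019 where the mutant one was. Per exon length Acta2 stood 118 to 148 times above Actg2 in the 4 libraries. Muscle actins are close relatives, but in the annotated transcripts 0 of 1284 windows of 50 bases of Actg2 and 7 of 1986 of Acta2 recurred in a transcript of another gene.

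Lmod1, the smooth muscle leiomodin that nucleates actin filaments (chromosome 1, 135324807 to 135368065), had 42 and 34 reads in wildtype libraries 1 and 2, against 82 and 38 reads in the mutant libraries 1 and 2. In CPM this was 2.24 and 2.15 in wildtype and 3.61 and 2.68 in mutant libraries, with both mutant values above both wildtype values. Scaled to library size, the exact 95% counting intervals were 1.61 to 3.02 and 1.49 to 2.998 CPM in wildtype libraries 1 and 2, against 2.87 to 4.48 and 1.90 to 3.68 CPM in the mutant libraries. Those of both mutant libraries overlapped those of both wildtype libraries, and such intervals cover counting error only. The estimated log2 fold change was 0.53 ± 0.32, with an edgeR adjusted p of 0.944, and 0.29 without mutant replicate 1.

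**Figure D3:**
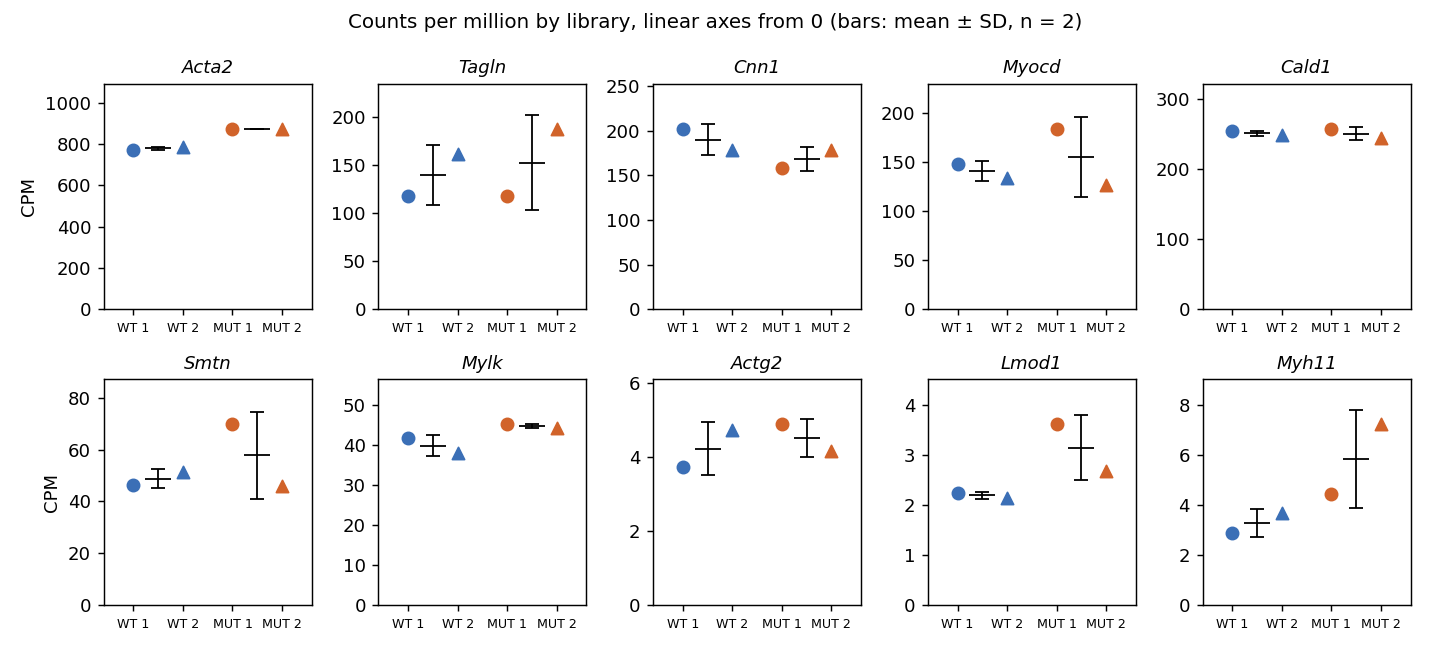
CPM of each contractile gene in wildtype (blue) and mutant (orange) libraries, circles for replicate 1 and triangles for replicate 2, with the mean ± SD of each genotype in black (n = 2); each axis starts at 0. Acta2, Myh11, Lmod1 and Mylk have both mutant values above both wildtype values, Cnn1 has both below, and the other 5 genes overlap.

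Transgelin (Tagln), calponin 1 (Cnn1), caldesmon (Cald1) and smoothelin (Smtn) bind actin filaments, and calponin and caldesmon restrain the myosin motor. Tagln (chromosome 9, 45929619 to 45936058) measured 118 and 162 CPM in the wildtype libraries 1 and 2, and 118 and 188 CPM in the mutant libraries 1 and 2. Its levels went with the replicate number, since both replicate 2 libraries were above both replicate 1 libraries. The mean difference between the numbers was 0.57 on the log2 CPM scale, against a genotype log2 fold change of 0.13 ± 0.23 (edgeR adjusted p = 0.984), or 0.11 ± 0.16 with the replicate block. Without mutant replicate 2 the genotype value was -0.24 and without wildtype replicate 1 it was -0.080. Tagln shares 108 exon bases with Pcsk7 and 1241 with the antisense transcript Gm48529, both on the other strand. Without a stated strand setting those reads cannot be told apart, and Pcsk7 itself measured 21.5 to 24.4 CPM in the 4 libraries.

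Cnn1 (chromosome 9, 22099216 to 22109630) was the 1 member whose mutant libraries were both below both wildtype libraries. It measured 202 and 178.03 CPM in the wildtype libraries 1 and 2, and 159 and 177.97 CPM in the mutant libraries 1 and 2. The replicate 2 libraries of the genotypes were nearly equal, and the separation came from replicate 1. The log2 fold change was -0.18 ± 0.13, a ratio of 0.885 with a 95% interval of 0.719 to 1.09 and an edgeR adjusted p of 0.962. Leaving out wildtype replicate 1 gave -0.077, and leaving out mutant replicate 1 gave -0.098. Of 25 cardiomyocyte markers, 5 had both mutant libraries below both wildtype libraries (16.3% of all tested genes) and 0 had both above (17%). Their median log2 fold change was -0.14, or -0.30 in replicate 1 and 0.0043 in replicate 2, where 12 were lower and 13 higher in the mutant. Their part in the Cnn1 value was not tested.

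Cald1 (chromosome 6, 34598500 to 34775473) had the least spread of the 10 relative to its level, at 254 and 249 CPM in wildtype libraries 1 and 2, against 257 and 244 CPM in the mutant libraries 1 and 2. The mutant values lay on either side of the wildtype values. Its log2 fold change was -0.0042 ± 0.12, with an edgeR adjusted p of 0.997 and a 95% interval of the fold from 0.825 to 1.21. Smtn (chromosome 11, 3517523 to 3540612) measured 46.2 and 51.4 CPM in wildtype libraries 1 and 2, against 69.8 and 46.0 CPM in the mutant libraries 1 and 2. Mutant replicate 1 was well above the other 3 libraries, and mutant replicate 2 was the lowest. The log2 fold change was 0.25 ± 0.20 (edgeR adjusted p = 0.962), 0.52 without mutant replicate 2 and -0.085 without mutant replicate 1. Smtn shares 714 exon bases with Gm11946 and 39 with Gm11947, both on the other strand.

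Myh11, the smooth muscle myosin heavy chain (chromosome 16, 14194535 to 14291372), had the largest fold of the 10 and the lowest level per exon length. It had 54 and 58 reads in the wildtype libraries 1 and 2, and 101 and 102 reads in the mutant libraries 1 and 2, or 2.88 and 3.66 CPM against 4.45 and 7.20 CPM. Both mutant libraries were above both wildtype libraries, and mutant replicate 2 was the highest. Scaled to library size, the exact 95% counting intervals were 2.16 to 3.75 and 2.78 to 4.73 CPM in wildtype libraries 1 and 2, against 3.62 to 5.40 and 5.87 to 8.74 CPM in the mutant libraries. The interval of mutant replicate 1 thus overlapped those of both wildtype libraries, and that of mutant replicate 2 lay above them. Myh11 was 1.77-fold higher (log2 fold change 0.82 ± 0.31, unadjusted p = 0.0274 and adjusted p = 0.750 by edgeR's quasi-likelihood test), with a 95% interval of the fold from 1.08 to 2.88. With the replicate block the adjusted p was 0.427, and in the authors' deposited table the log2 fold change was 0.81 with an adjusted p of 0.438. The Myh11 adjusted p was 0.99993 by DESeq2 and 0.840 by limma-voom. Leaving out mutant replicate 2, the library that also differed in sex, gave a log2 fold change of 0.45, and leaving out mutant replicate 1 gave 1.14. Without mutant replicate 1, the only mutant library left is the one that differed in sex, so genotype and sex cannot be told apart there.

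The myosin light chain kinase gene Mylk (chromosome 16, 34745210 to 35002420) measured 41.8 and 37.9 CPM in wildtype libraries 1 and 2, against 45.1 and 44.3 CPM in the mutant libraries 1 and 2. The mutant libraries were both above the wildtype libraries by a small margin. Between genotypes the log2 fold change was 0.17 ± 0.15, with an edgeR adjusted p of 0.979 and a 95% interval of the fold from 0.890 to 1.41. Mylk shares 548 exon bases with the antisense gene E130310I04Rik, which measured 0.968 to 1.51 CPM, and 224 with the antisense transcript Gm21691, which was not analysed here. In all, 5 of the 10 genes had genotypes that did not overlap, 4 higher (Acta2, Myh11, Lmod1 and Mylk) and 1 lower (Cnn1) in the mutant. Over all tested genes 17% were higher without overlap and 16.3% lower.

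Same-numbered libraries, which the study describes as pairs of mutants and littermates, gave different pictures for several genes. Of the 10 genes, 4 were higher in the mutant in both numbers (Acta2, Lmod1, Mylk and Myh11), and 4 were higher in replicate 1 and lower in replicate 2 (Myocd, Smtn, Actg2 and Cald1). Over all tested genes these shares were 24.3% and 25.5%. Smtn had a log2 ratio of mutant to wildtype of 0.59 in replicate 1 and -0.16 in replicate 2, Actg2 0.38 and -0.18, and Myocd 0.31 and -0.074. Acta2 had 0.18 and 0.15, and Myh11 0.61 and 0.96. Mutant replicate 1 was the highest library for 7 of the 10 genes, where 29.6% of all tested genes had their highest value. The median log2 ratio over the 10 was 0.24 in replicate 1 and 0.076 in replicate 2. With 1 library per genotype and number, the difference between the numbers was not tested.

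**Figure D4:**
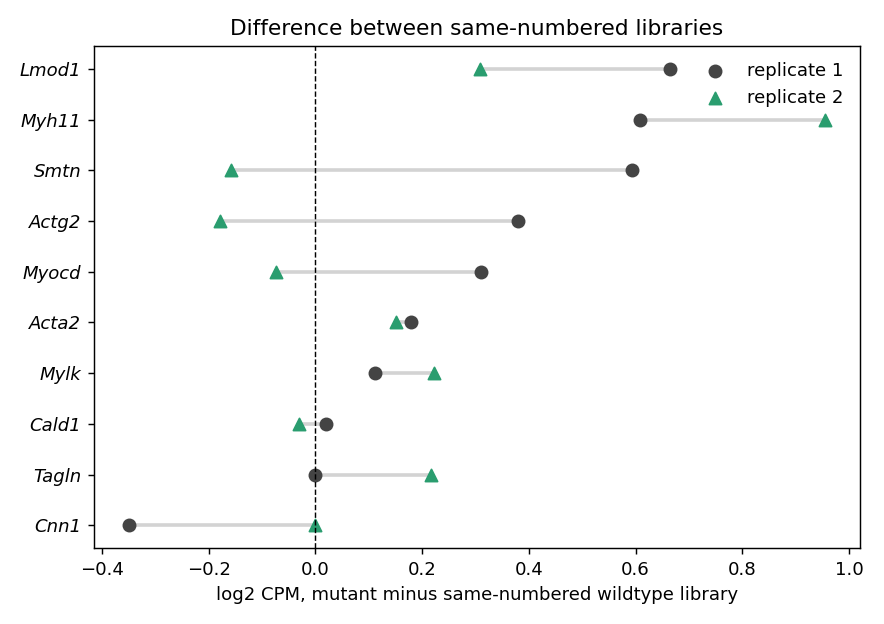
Log2 CPM of the mutant library minus that of the same-numbered wildtype library for each contractile gene, circles for replicate 1 and triangles for replicate 2, with 1 library per genotype and number. Acta2 and Myh11 lie right of 0 in both numbers, while Smtn, Actg2 and Myocd lie right of 0 in replicate 1 and left of it in replicate 2.

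By likeness of pattern, the 5 genes nearest to the mean centred log2 CPM of the 10 members over the 4 libraries, among 9488 genes with a mean of at least 10 CPM, were Shmt2, Pcolce, Ptbp1, Erich1 and Pknox1. Their Euclidean distances ran from 0.0052 for Shmt2 to 0.029 for Pknox1. Among the members themselves, Acta2 was nearest to the mean pattern at 0.053 and Mylk next at 0.15, while Myh11 was farthest at 0.80 and Tagln next at 0.58. The mean includes the member being measured, and the distance also grows with the size of a gene's differences between libraries. Myh11 rested on 54 to 102 reads per library. With 4 libraries many genes resemble any given pattern.

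The genes around the contractile set were described in the same fit, and 0 of them passed by edgeR with or without the block in the 5 lists that follow. Of 34 other smooth muscle genes, 33 had a row and 32 were tested, with a median log2 fold change of 0.0072 and 0 called. At an edgeR unadjusted p below 0.05, 0 were found, where 3.88% of all tested genes were higher and 1.9% lower. Tpm1, a tropomyosin and the most abundant gene of this list, measured 2583 and 2045 CPM in wildtype libraries 1 and 2, against 2131 and 2516 CPM in the mutant libraries 1 and 2, a log2 fold change of 0.0059 ± 0.17. Pln, the calcium pump inhibitor phospholamban, measured 1790 and 1509 CPM in wildtype libraries 1 and 2, against 1083 and 1690 CPM in the mutant libraries, a log2 fold change of -0.25 ± 0.21. Both are also abundant in heart muscle.

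Of 28 SRF and myocardin family regulators, 27 were tested, with a median of -0.039. At an edgeR unadjusted p below 0.05, 1 gene was higher and 1 lower, against 3.88% and 1.9% of all tested genes. The members of highest level were Actb, the cytoplasmic actin whose monomers hold back SRF cofactors, at a log2 fold change of 0.16 ± 0.15, and Tead1, a TEA-domain factor, at 0.046 ± 0.14. Srf itself, also chosen after its values were seen, measured 50.2 and 45.3 CPM in wildtype libraries 1 and 2, against 44.1 and 51.5 CPM in the mutant libraries 1 and 2, with a log2 fold change of -0.0019. Those past the unadjusted threshold, named after their values were seen, were Klf4, a repressor of smooth muscle genes, and Hopx, a homeodomain protein that restrains SRF. Klf4 measured 11.8 and 13.7 CPM in wildtype libraries 1 and 2, against 20.6 and 17.2 CPM in the mutant libraries 1 and 2, with an edgeR adjusted p of 0.575. Hopx measured 52.5 and 41.4 CPM in wildtype libraries 1 and 2, against 32.9 and 36.7 CPM in the mutant libraries 1 and 2, with an edgeR adjusted p of 0.780. Of the 27 tested, 3 were higher and 5 lower without overlap of the genotypes, against 17% and 16.3% of all tested genes. Klf4 was among those higher and Hopx among those lower, and both had been picked by their unadjusted p.

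Of 31 symbols of myosin light chain phosphorylation and RhoA signalling, 29 had a row and 27 were tested, with a median of 0.026. At an edgeR unadjusted p below 0.05, 2 genes were higher and 1 lower, against 3.88% and 1.9% of all tested genes. Myh10, a nonmuscle myosin heavy chain, had a log2 fold change of 0.24 ± 0.15, and Ppp1cb, the catalytic subunit of myosin phosphatase, -0.068 ± 0.13. Myl9, the regulatory light chain that Mylk phosphorylates, singled out after its values were seen, measured 564 and 429 CPM in wildtype libraries 1 and 2, against 376 and 471 CPM in the mutant libraries 1 and 2, which overlapped. Myh9, another nonmuscle myosin chosen after its values were seen, measured 409 and 425 CPM in wildtype libraries 1 and 2, against 695 and 468 CPM in the mutant libraries 1 and 2, with an edgeR adjusted p of 0.757. Both mutant libraries were above both wildtype libraries, by a log2 ratio of 0.76 in replicate 1 and 0.14 in replicate 2. Of the 27 tested, 8 were higher and 3 lower without overlap, against 17% and 16.3% of all tested genes. Also past the unadjusted threshold, and named after their values were seen, were Myl6 and Ppp1r14c. Myl6 had a log2 fold change of 0.33 ± 0.14 and Ppp1r14c of -0.30 ± 0.12, with edgeR adjusted p of 0.853 and 0.788.

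Of 22 relatives of the contractile proteins (other actins, leiomodins, tropomodulins, calponins, transgelins and myosins), 19 were tested, with a median of 0.070. At an edgeR unadjusted p below 0.05, 2 were higher and 0 lower, against 3.88% and 1.9% of all tested genes. Cardiac actin Actc1 measured 5263 and 4176 CPM in wildtype libraries 1 and 2, against 4007 and 4195 CPM in the mutant libraries 1 and 2, a log2 fold change of -0.20 ± 0.17, and at 2726 RPKM it stood above Acta2 at 376 RPKM. The next by level was Actb, whose value is given above. Of 16 mural cell and pericyte markers, 14 were tested, with a median of 0.11 and 0 past an edgeR unadjusted p of 0.05, against the same shares. Its members of highest level were Mcam, an adhesion molecule of vessel walls, at a log2 fold change of 0.078 ± 0.13, and Abcc9, a subunit of potassium channels, at -0.099 ± 0.13. Higd1b and Vtn, the markers that were not tested, had 0 to 0.071 and 0 to 0.424 CPM per library. The tested ones ran from a mean of 2.43 CPM for Ndufa4l2 to 261 CPM for Mcam. Higd1b, Vtn and Ndufa4l2 were chosen after their values were seen. The summed level of all 16 markers was 923 and 926 CPM in wildtype libraries 1 and 2, against 951 and 938 CPM in the mutant libraries. Mcam and Abcc9 gave 270 and 233 CPM of that sum in wildtype library 1. For comparison, 4 of 19 tested macrophage and leukocyte markers passed by edgeR, all higher, or 8 with the replicate block, with a list median of 0.94. Other cell types and RNA quality had 0 called genes without the block: endothelial and endocardial markers (15 tested) had a median of -0.019, mesenchyme and fibroblast markers (15) -0.037, epicardial markers (11) 0.10, skeletal muscle markers (7) 0.055 and stress genes (14) 0.081. Of the stress genes 2 were higher at an edgeR unadjusted p below 0.05, where 3.88% of all tested genes were. They were the heat shock genes Hspa1a and Hspa1b, named after their values were seen. Their near-identical sequences make the split of reads between them uncertain. The most abundant genes of this list, Hspa8 and Hsp90aa1, had log2 fold changes of 0.0080 ± 0.17 and -0.14 ± 0.17. Hspa1a measured 0.533 and 0.820 CPM in wildtype libraries 1 and 2, against 1.496 and 2.68 CPM in the mutant libraries, with an edgeR adjusted p of 0.470. Hspa1b measured 1.17 and 0.884 CPM in wildtype libraries 1 and 2, against 3.39 and 2.54 CPM in the mutant libraries, with an edgeR adjusted p of 0.267. Both mutant values were above both wildtype values in Hspa1a and Hspa1b, as for 4 of the 14 stress genes and 17% of all tested genes. The part of these differences in the contractile values was not tested. With the block 1 endocardial and 1 cardiomyocyte marker fell.

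**Figure D5:**
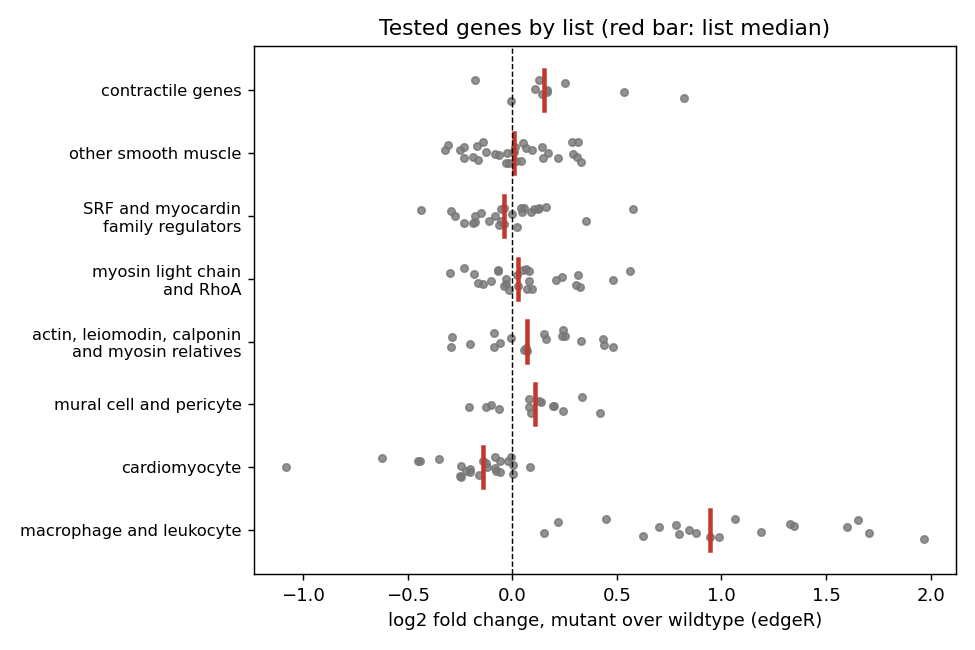
Log2 fold change, mutant over wildtype, of every tested gene (grey points, spread vertically for visibility) in the contractile genes and 7 other lists, with the list median as a red bar. The contractile median is 0.15, those of the 5 related lists lie between -0.039 and 0.11, that of cardiomyocyte markers is -0.14 and that of macrophage and leukocyte markers is 0.94.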

How the data were processed

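The authors deposited raw counts per gene symbol for 4 libraries and a table of their own edgeR comparison. The submitters' processing notes name TopHat2 and Bowtie2, HTSeq, SAMtools and edgeR, with the mm10 build. Versions, the gene annotation and whether strand was used in counting: not stated there. Rows naming no gene were left out: reads outside features took 51.8% to 54.4% of the tally, multiply aligned ones 16.1% to 17.0% and ambiguous ones 0.187% to 0.210%. The deposited comparison gives log2 fold changes (wildtype over mutant, turned round here), log2 CPM, a likelihood ratio score, p-values and, for 43 rows past an adjusted p-value of 0.05, a fold ratio; it held 9 of the 10 genes.

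The test on the counts was that of edgeR 4.0.16, run in R 4.3.3 (TMM, filterByExpr, quasi-likelihood F test, Benjamini-Hochberg, threshold 0.05). It was also run on simulated counts that had the same spread for every gene and no replicate or sex difference. That run therefore says little about libraries that differ in both. CPM uses TMM-scaled library sizes, log2 CPM a prior count of 2. A standard error is the log2 fold change over the root of F, and 95% intervals use the test's degrees of freedom. Of these, 7.14 came from all genes together and 2 from the gene itself, so a standard error is not the gene's own library spread alone. At these depths 3 reads are 0.134 to 0.213 CPM. GENCODE M21 (GRCm38) gave positions and exon lengths, matched for 22874 rows; sequences are RefSeq's. Alternatives used DESeq2 1.42.0 and limma-voom 3.58.1, among others.

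The series text describes pairs. Same-numbered libraries deviated together at a correlation of 0.144 across genes, which are not independent replicates. The largest difference from the deposited log2 fold changes was 0.124 with the replicate block and 2.81 without it. The median difference was nearly the same, 0.0040 with the block and 0.0049 without it, so the contrast rests on the rows that differ most. With the series text, this is why the numbers were read as pairs, as in the authors' model. The main values come from the unblocked fit, as planned. All 10 genes are named; a related list gives its called genes or, where it has under 2, its 2 most abundant by mean CPM, and any other gene is marked as chosen after its values were seen. The members and lists were chosen with earlier results of these data known.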

Additional observations from a re-analysis of the deposited data

How the results depend on the processing

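The count of 0 of 10 contractile genes past the threshold held in every alternative that kept all 4 libraries. With a CPM of at least 5 in 2 libraries, Myh11, Lmod1 and Actg2 were not tested. Of all tested genes, edgeR called 0.0629%, limma-voom 0.0489%, DESeq2 0.433% and edgeR with the replicate block 0.887%. At such shares a count of 0 of 10 says little about whether these genes differ. The median log2 fold change of the 10, 0.15, ranged from 0.065 without mutant replicate 1 to 0.23 without wildtype replicate 2. It was 0.24 within pair 1 and 0.076 within pair 2, both added after seeing the data. The replicate block changed no call among the 10 and gave a median of 0.14. The count of 9 genes over the whole table became 127 with the replicate block, 236 without a filter and 62 with DESeq2, and 3 (without wildtype replicate 2) to 443 (without mutant replicate 2) with a library left out; the cause was not tested. With a library left out, the spread of the remaining single one is borrowed from the other genotype. Signs turned for genes near 0: Cald1 was 0.014 with upper-quartile scaling, 0.0032 with the stricter filter, 0.00074 without the 10 most abundant genes and -0.046 to 0.040 with a library left out. Leaving out a library gave -0.24 to 0.43 for Tagln, -0.16 to 0.39 for Myocd, -0.085 to 0.52 for Smtn and -0.054 to 0.28 for Actg2, and kept the sign for Acta2 (0.16 to 0.17), Myh11 (0.45 to 1.14), Cnn1 (-0.27 to -0.077), Lmod1 (0.29 to 0.72) and Mylk (0.096 to 0.24). Depth limits Myh11, Lmod1 and Actg2, at 34 to 111 reads per library.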
